A study of Mus musculus with 2 samples.

Results

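CTCF binding was examined at the Sonic hedgehog locus and at the core genes of the hedgehog pathway in newborn mouse midbrain. The genes were Shh, its neighbours Rnf32 and Lmbr1, the receptor genes Ptch1 and Smo, and the effector genes Gli1, Gli2 and Gli3. Members were the optimal peaks whose summit lay in 1 of these 8 gene bodies with 20 kb added on each side, or in the interval from Shh to Lmbr1 on chromosome 5. The rule used positions only, and 56 of 68603 optimal peaks met it. All coordinates are on mm10, counted from 1, with genes from GENCODE vM21.

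DNA bound by CTCF had been precipitated with an antibody and sequenced (ChIP-seq) from the midbrain of newborn B6NCrl mice (postnatal, 0 days), in 1 group of 2 replicates. Both replicates stand under the same tissue and donor record and the sex was not collected, so any spread between them may be technical only. Peaks had been called by the authors against a control alignment, for each replicate and for both together, and an optimal and a conservative list were then thresholded by IDR (irreproducible discovery rate), a measure of how well peak ranks hold up between sets of peaks. Read depth is not given in the sources used here, so a place without a listed peak is not shown to lack CTCF. Peak lists do not measure expression, and the tissue label could not be checked by marker genes. With 1 group there was nothing to test between conditions, and all values below are descriptions.

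Hedgehog ligands are secreted proteins that pattern the embryo, and in the ventral midbrain Shh from the floor plate directs the formation of several neuron types. Shh binds the receptor Ptch1, which then ceases to hold back the membrane protein Smo, and Smo signals through the primary cilium to the Gli transcription factors. Shh itself lies beside a gene desert that holds enhancers for separate tissues, among them the limb enhancer known as the ZRS inside Lmbr1. CTCF recognises a long motif that has a direction, through its zinc fingers. Together with cohesin it is known for anchoring chromatin loops, often between motifs that point towards each other.

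The sites of the 8 motif peaks with the highest signal in the Shh to Lmbr1 interval are printed first, together with the site at the limb enhancer, because the account of the locus turns on their order and direction. Each is 50 bases of RefSeq GRCm38.p6, the same build, read 5′ to 3′ on the strand of the motif. Capitals mark the 20 bases that matched a CTCF weight matrix learned from peaks on other chromosomes, at a per-position p of 1e-05 and within 50 bp of the summit. A match describes letters and is not a measured binding site.
Shh downstream, chr5:28451353-28451402 plus strand: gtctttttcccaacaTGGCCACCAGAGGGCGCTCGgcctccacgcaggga
Shh upstream, nearer, chr5:28469643-28469692 plus strand: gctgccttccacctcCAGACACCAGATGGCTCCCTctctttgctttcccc
Shh upstream, farther, chr5:28469948-28469997 plus strand: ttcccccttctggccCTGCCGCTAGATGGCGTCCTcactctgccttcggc
gene desert, strongest, chr5:29036823-29036872 minus strand: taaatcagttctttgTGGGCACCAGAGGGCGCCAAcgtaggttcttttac
Lmbr1 intron 9, chr5:29274921-29274970 minus strand: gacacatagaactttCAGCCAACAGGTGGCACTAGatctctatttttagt
Lmbr1 intron 5, strongest, chr5:29293377-29293426 minus strand: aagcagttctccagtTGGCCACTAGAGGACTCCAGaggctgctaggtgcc
Lmbr1 intron 5, limb enhancer, chr5:29314793-29314842 minus strand: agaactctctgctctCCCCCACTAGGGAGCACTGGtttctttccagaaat
Lmbr1 intron 4, chr5:29336018-29336067 minus strand: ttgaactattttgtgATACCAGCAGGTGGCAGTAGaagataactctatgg
beyond the Lmbr1 start, chr5:29389545-29389594 plus strand: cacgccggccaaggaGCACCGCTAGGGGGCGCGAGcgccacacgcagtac

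Of these, the site downstream of Shh had the highest motif score among the hedgehog peaks, 26.1, above 99.9% of the scores of all optimal peaks. It shared 16 of 20 motif bases with the strongest site of the gene desert, and as many with the weak desert site at 29003090 (signal 31.8). With the strongest Lmbr1 site it shared 15. The site at the limb enhancer scored 13.1. The most frequent letters of the matrix, where 1 base made up at least 60% of the learned sites, read NNNCCACNAGNNGGCNNNNN.

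For the receptor and effector genes, the sites shown are those of the Gli1 promoter and intron 2, of the strongest peak of Gli2 and of Gli3, and of the 2 strongest peaks of Smo, on which the account of these genes turns. The Gli2 promoter site reached only the looser limit of 1e-04 and is shown because the peak is strong although the match is weak.
Gli1 promoter, chr10:127342462-127342511 minus strand: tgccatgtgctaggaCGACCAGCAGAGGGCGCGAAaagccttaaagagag
Gli1 intron 2, chr10:127339001-127339050 plus strand: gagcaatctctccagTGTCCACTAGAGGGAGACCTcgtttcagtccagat
Gli2 promoter, weak match, chr1:119053699-119053748 minus strand: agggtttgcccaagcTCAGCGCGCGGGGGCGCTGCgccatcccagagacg
Gli3 intron 12, chr13:15715306-15715355 minus strand: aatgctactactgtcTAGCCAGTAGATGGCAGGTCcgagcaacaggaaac
Smo intron 9, chr6:29758656-29758705 minus strand: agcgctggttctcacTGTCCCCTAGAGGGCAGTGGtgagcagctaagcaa
Smo downstream, chr6:29762672-29762721 plus strand: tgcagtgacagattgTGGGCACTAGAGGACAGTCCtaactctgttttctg

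Of the last 4 sites, 3 lie wholly in sequence that RefSeq marks in lower case as repeated or of low complexity (soft-masked). They show letters that such sites share. The fourth, labelled beside Gli1, lies in the Gli1 window 29.5 kb downstream of the outermost Gli1 start. It has 19 of its 20 bases masked and similar letters, at a strong peak.
Ptch1 downstream, masked, chr13:63507985-63508034 plus strand: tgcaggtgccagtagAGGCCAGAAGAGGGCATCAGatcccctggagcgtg
Gli2 intron 2, masked, chr1:118970237-118970286 minus strand: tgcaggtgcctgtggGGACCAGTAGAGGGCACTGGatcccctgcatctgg
Gli1 intron 12, masked, chr10:127332253-127332302 minus strand: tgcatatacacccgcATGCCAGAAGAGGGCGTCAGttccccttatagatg
beside Gli1, masked but for 1 base, chr10:127312471-127312520 minus strand: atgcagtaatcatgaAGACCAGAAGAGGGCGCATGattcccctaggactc

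Signal was uneven among the hedgehog genes, and the median over all their peaks lay below that of optimal peaks at large. This median signal value, the authors' own value for each peak, was 46.4, against 76.5 for all 68590 optimal peaks on chromosomes 1 to 19 and X. The range was 19.9 to 501. By gene, the median was 135 at Shh, 122 at Gli1 and 94.9 at Lmbr1, above the genome median, and 29.5 at Gli2, 36.6 at Gli3, 42.0 at Ptch1 and 34.4 at Smo, below it. The interval from Shh to Lmbr1 had a median of 82.5. Placed among all optimal peaks by signal, the hedgehog peaks had a median percentile of 32.6, and 22 of 56 lay above the genome median. A signal under 50 was found at 30 of 56 (background 35.5% of all optimal peaks), and a signal over 200 at 12 of 56 (background 26.3%). These 12 were spread over the interval (5 peaks) and the windows of Gli1 (4), Gli2, Gli3 and Smo (1 each), and none was at Ptch1 or Rnf32.

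Nearly all hedgehog peaks were listed in both replicates. Of the 56, 55 were found in both replicate lists, with summits within 100 bp (background 97.8%), and 49 were in the conservative list (background 86.9%). The optimal list was itself thresholded by IDR, and the replicate lists are long (300000 peaks each). Presence in both, and similar ranks, were thus largely built in and are no separate measure of agreement. Replicate 1 gave higher signal values than replicate 2, by a median log2 ratio of 0.47 at the hedgehog peaks (SD over peaks 0.43, n = 55) and 0.30 at all optimal peaks (SD 0.46). The offset was larger at weak peaks. It was 0.57 at hedgehog peaks with a signal under 50 and 0.27 at those over 200, against 0.46 and 0.19 for all peaks of the same strength. The lists carry no recorded scaling between libraries, so percentiles within each replicate are used to compare them. Across the 55 peaks, which share both libraries, Spearman's rho between replicates was 0.905, against 0.948 over 67101 optimal peaks.

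**Figure D1:**
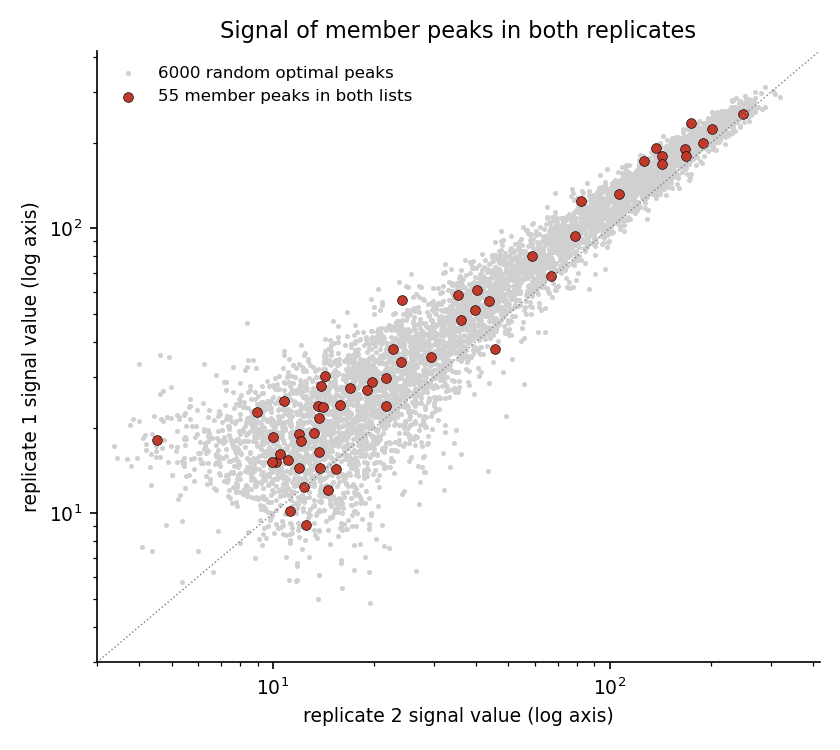
Signal value of the hedgehog peaks in replicate 1 (y axis, log scale) and replicate 2 (x axis, log scale), as red points, over a sample of 6000 optimal peaks in grey, with the dotted line at equal values. The 55 hedgehog peaks follow the grey cloud, and most lie above the line, with a median log2 ratio of 0.47.

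The ligand gene Shh had 3 optimal peaks within 20 kb, none of them inside the gene and none within 1 kb of its start. All 3 held a motif (background 58.6% of all optimal peaks), each on the plus strand, and all 3 were above the genome median. The strongest, with its summit at 28451398, lay 15.9 kb downstream of the Shh start and beyond the end of the gene. Its signal was 501, rank 474 of all optimal peaks (percentile 99.3). Replicate 1 gave it 252 and replicate 2 gave it 248, so the replicates hardly differed there.

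Upstream of Shh, 2 peaks lay side by side, in introns of the noncoding genes 9530036O11Rik and Gm26894. The nearer one, at 28469672, was 2416 bp from the Shh start and had a signal of 135, with 68.2 in replicate 1 and 66.9 in replicate 2. The farther one, at 28469972 and 2716 bp from the start, had a signal of 82.5, with 47.5 in replicate 1 and 36.1 in replicate 2. Within each replicate the nearer peak was the higher of the pair.

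The interval from Shh to Lmbr1, 962 kb with its flanks, held 19 optimal peaks, or 19.8 per Mb. Chromosome 5 had 32.2 per Mb and the autosomes 27.2 per Mb. Peaks were grouped at both ends. Between the pair upstream of Shh and the gene Rnf32, a stretch of 0.724 Mb had 7 peaks (9.67 per Mb). The 3 longest stretches without an optimal peak were 227, 214 and 214 kb. Gaps of 200 kb or more made up 2.61% of the gaps between neighbouring autosomal peaks, whose median was 13.2 kb.

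Within the desert only 1 peak had a signal over 200. It lay at 29036853, 159 kb upstream of Rnf32, with a signal of 237, 132 in replicate 1 and 107 in replicate 2, and a motif on the minus strand. A second peak above the genome median, at 28993675 (signal 90.6), had no motif even at the looser limit. The other 5 desert peaks had signals between 26.1 and 47.4. Among them was the peak at 28911280, with a signal of 34.5, which was unequal between replicates, at 22.7 in replicate 1 and 8.95 in replicate 2, and which was not in the conservative list.

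**Figure D2:**
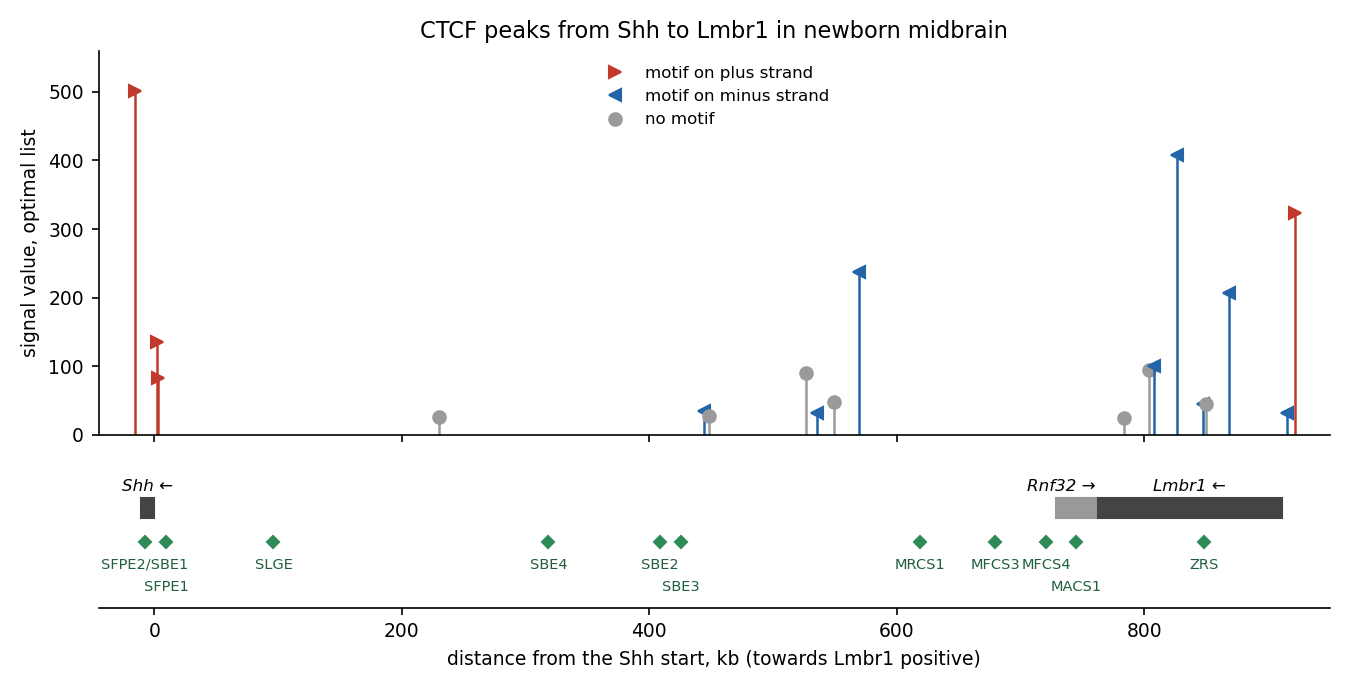
Optimal CTCF peaks between Shh and Lmbr1, by distance from the Shh start in kb (x axis) and signal value (y axis), with arrowheads for the strand of the motif, gene bodies as bars and RefSeq enhancer records as green diamonds. Plus-strand motifs stand at the Shh end, up to a signal of 501, minus-strand motifs across the desert and Lmbr1, up to 408, and a plus-strand motif of signal 324 lies beyond Lmbr1.

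Rnf32, which encodes a RING finger protein, had no optimal peak in its body or within 20 kb of it. It was the only one of the 8 genes without one, and 82.9% of all protein-coding genes had one. The replicate lists, which are longer (300000 peaks each), held 7 peaks there in replicate 1 and 9 in replicate 2. The nearest optimal peak to a Rnf32 start was 27539 bp away, inside Lmbr1, at a signal of 24.5.

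Lmbr1, a membrane protein gene whose introns hold the limb enhancer of Shh, had 9 optimal peaks, 7 of them inside the gene. Of the 9, 6 held a motif (background 58.6% of all optimal peaks), 5 on the minus strand and 1 on the plus strand. The strongest lay in intron 5 at 29293403, with a signal of 408 (percentile 94.7), 234 in replicate 1 and 174 in replicate 2. Next came the peak at 29389571, beyond the Lmbr1 start, in an exon of the noncoding gene 4632411P08Rik. Its signal was 324, with 180 in replicate 1 and 143 in replicate 2. The intron 4 peak at 29336041 had a signal of 207, with 125 in replicate 1 and 82.4 in replicate 2. These 3 held the same order in both replicates. No Lmbr1 peak lay within 1 kb of a start of the gene: the intron 5 peak was 1189 bp from an inner start, and the nearest to the outermost start was 4602 bp upstream, with a signal of 31.6.

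At the ZRS, the limb enhancer of Shh, the optimal list had a modest peak at 29314823 in Lmbr1 intron 5. Its signal was 45.4 (percentile 31.7), with 23.8 in replicate 1 and 21.7 in replicate 2, and its motif was on the minus strand. The summit lay inside the 1324 bp and 1164 bp regions that RefSeq records as deleted in mice, and 58 bp outside the VISTA element recorded as active in limb. RefSeq lists 11 enhancer records in the interval, chosen here after the peak values were seen, and the ZRS was the 1 record that held an optimal summit (background 17.5% of 813 enhancer records). The brain enhancers had none. SBE1 and SFPE2, active in ventral midbrain and floor plate and located inside Shh, lay 8.20 and 7.44 kb from the downstream peak. The floor plate enhancer SFPE1 was 6.12 kb from the nearest optimal peak. The diencephalon enhancers SBE2 and SBE3 were 34.6 and 18.2 kb from one, and the forebrain enhancer SBE4 was 88.1 kb from one. In the longer replicate lists SFPE2 held a weak peak in both, with a signal of 5.97 in replicate 1 and 5.92 in replicate 2.

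Of the 19 interval peaks, 12 held a motif (background 58.6% of all optimal peaks), 4 on the plus strand and 8 on the minus strand (background 49.9% plus). Read from Shh to Lmbr1, the 3 Shh peaks were plus, the next 8 were minus and the last, beyond the Lmbr1 start, was plus. Motifs at Shh thus pointed into the interval and those of the desert and of Lmbr1 pointed back towards Shh, while contacts between them were not measured here. In the stronger 50% of the list, 8 motif peaks kept the same run of strands. With replicate 1's own peaks a weak plus-strand motif peak (signal 16.6) was added inside Lmbr1. Among the 12 motif peaks the highest motif score, 26.1, went with the highest signal, 501, and the lowest score, 13.0, with the lowest signal, 31.6. Single sites departed from that order. The site at 29003090 had a score of 18.7 and a signal of 31.8, and the strongest Lmbr1 site had a score of 15.1 and a signal of 408.

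The receptor genes differed from each other. At Ptch1, which encodes the Shh receptor and is itself a target of Gli factors, 6 peaks on chromosome 13 were listed, all below the genome median, with signals of 25.3 to 51.3. The highest, with its summit at 63573704, was at the promoter, 106 bp upstream of the outermost start, with 30.0 in replicate 1 and 21.7 in replicate 2. It held no motif, and the 201 bases around the summit were 72.1% G or C. The next, in intron 2 at 63551744, had a signal of 47.8, with 28.9 in replicate 1 and 19.6 in replicate 2. Another peak, in intron 3 at 63547478, was the most unequal of the hedgehog peaks, with 18.1 in replicate 1 and 4.52 in replicate 2. The conservative list held 4 of the 6.

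Smo, the membrane protein that passes the signal on, had 6 peaks on chromosome 6, of which the 2 strongest lay at the 3′ end of the gene. The peak in intron 9 at 29758675 had a signal of 311, with 168 in replicate 1 and 143 in replicate 2. The peak at 29762695, past the end of the gene, had a signal of 172, with 93.9 in replicate 1 and 78.6 in replicate 2. Their motifs stood on opposite strands, the first on the minus strand and the second on the plus strand, so that they pointed away from each other. The other 4 had signals of 24.8 to 38.2, and the nearest to a Smo start was 9724 bp away.

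**Figure D3:**
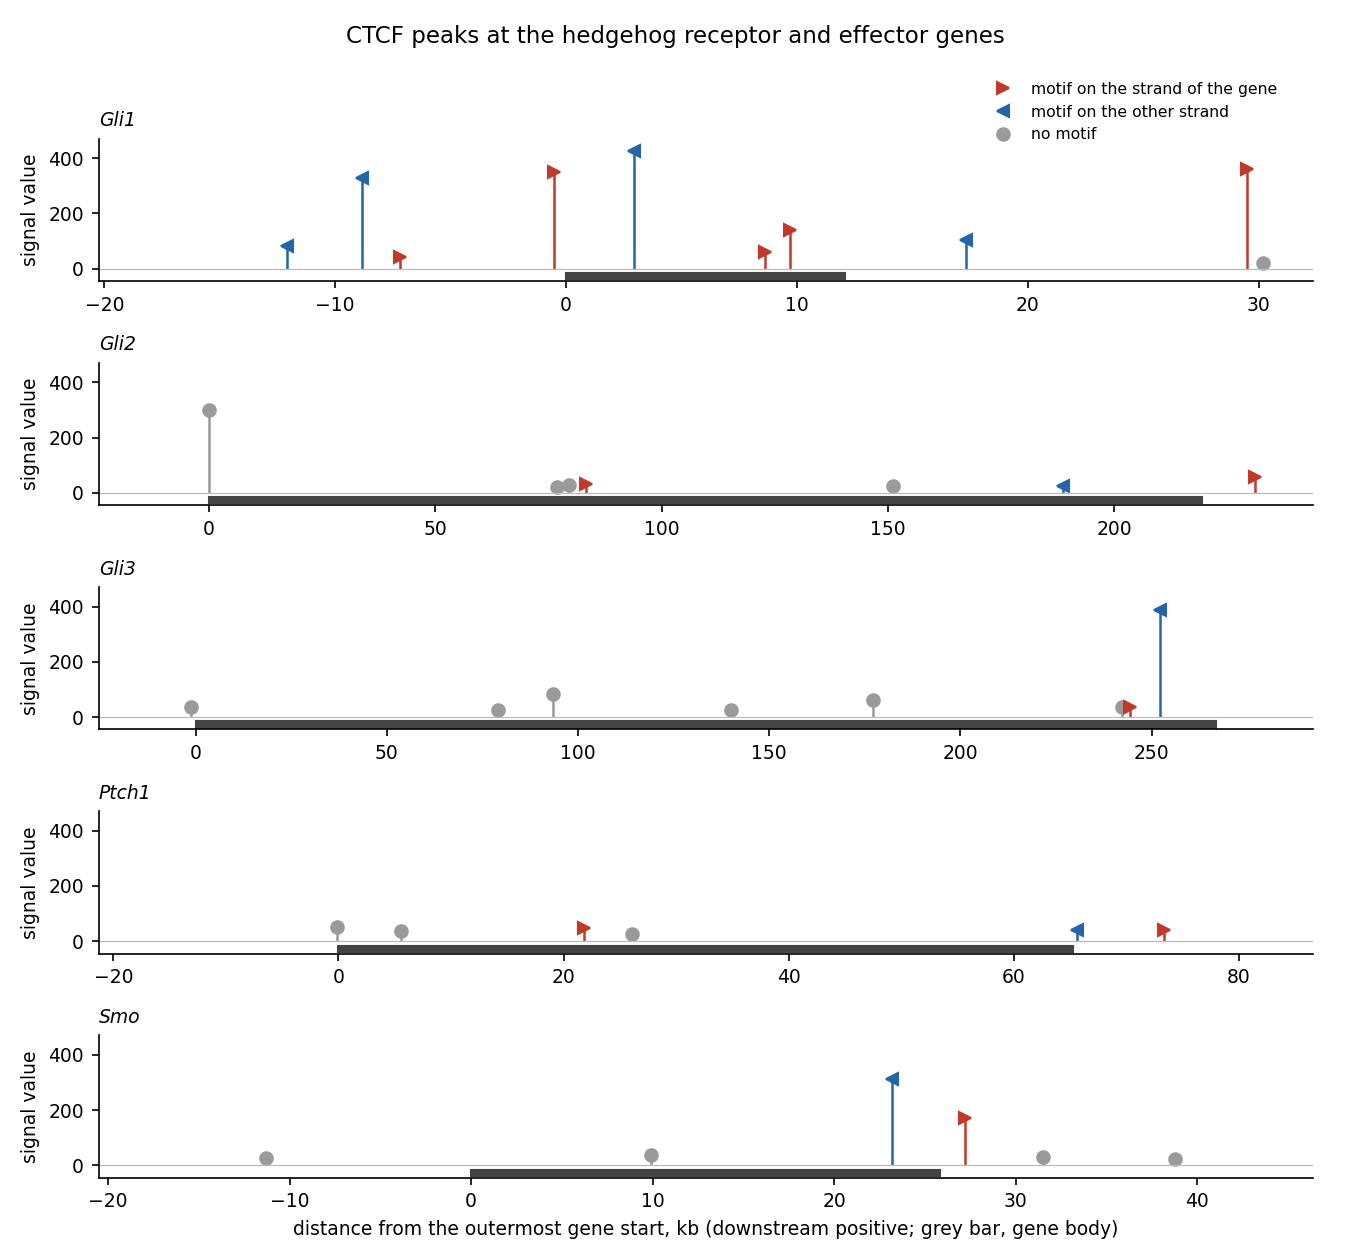
Optimal peaks at Gli1, Gli2, Gli3, Ptch1 and Smo by distance from the outermost start in kb (x axis, scaled per gene) and signal value (y axis), with arrowheads for the motif strand relative to the gene and a bar for the gene body. Gli1 shows 10 peaks up to 426, Gli2 has 1 peak over 200 at its start, Gli3 and Smo have 1 each near the 3′ end, and no Ptch1 peak exceeds 51.3.

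Among the effectors, Gli1, an activator that is transcribed in response to the signal, was the most densely covered, with 10 peaks in its window on chromosome 10, or 192 per Mb. The whole chromosome had 25.6 per Mb. The window also covers parts of the neighbouring genes Arhgap9, Mars and Inhbe, and 3 of the 10 peaks were inside Gli1. Of the 10, 9 held a motif (background 58.6% of all optimal peaks), 4 on the plus strand and 5 on the minus strand. The strongest peak, in intron 2 at 127339028 and 931 bp downstream of an inner start, had a signal of 426 (percentile 96.2). It reached 224 in replicate 1 and 201 in replicate 2. The promoter peak at 127342496, 522 bp upstream of the outermost start, had a signal of 350, with 180 in replicate 1 and 168 in replicate 2. These 2 motifs stood on opposite strands and pointed towards each other. Elsewhere in the window, outside Gli1, the peaks at 127312496 and 127350794 had signals of 359 and 328. The first lay 29.5 kb downstream of the Gli1 start and 653 bp from a start of Gm6283. It stood beside a weak peak at 127311797 that was 11 bp from a start of Mars. The second lay in exon 2 of Inhbe.

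In the Gli1 window, outside the gene itself, also lay 2 peaks with replicates apart. The peak at 127354062, in exon 1 of Inhbe, had a signal of 82.4, with 56.2 in replicate 1 and 24.1 in replicate 2. The weakest of the hedgehog peaks, at 127311797 by the Mars start, had a signal of 19.9. It was listed in replicate 1 at 16.3 and not in replicate 2.

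Gli2, known as the main activator at the start of the response, had 7 peaks on chromosome 1, and 1 of them stood out at its promoter. This peak, at 119053720 and 101 bp upstream of the outermost start, had a signal of 301 (percentile 84.6), with 173 in replicate 1 and 126 in replicate 2. It was the 1 peak over 200 among the hedgehog peaks without a motif at 1e-05, and 67.2% of the 201 bases around it were G or C. The other 6 had signals of 22.3 to 57.2, all below the genome median. The second strongest lay past the 3′ end at 118822462, with 34.1 in replicate 1 and 24.0 in replicate 2.

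Gli3, which in the absence of the ligand acts chiefly as a repressor, had 8 peaks on chromosome 13, along its long body, and none within 1 kb of a start. The strongest lay far from the promoter, in intron 12 at 15715333, 252 kb downstream of the outermost start. It had a signal of 389 (percentile 93.1), with 200 in replicate 1 and 189 in replicate 2, and a motif on the minus strand. In second place, the intron 3 peak at 15556738 had a signal of 83.2 and was lower in replicate 1, at 37.7, than in replicate 2, at 45.8. The nearest peak to a start was 1266 bp upstream, with a signal of 35.8. The other 5 Gli3 peaks had signals of 26.1 to 61.8.

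**Figure D4:**
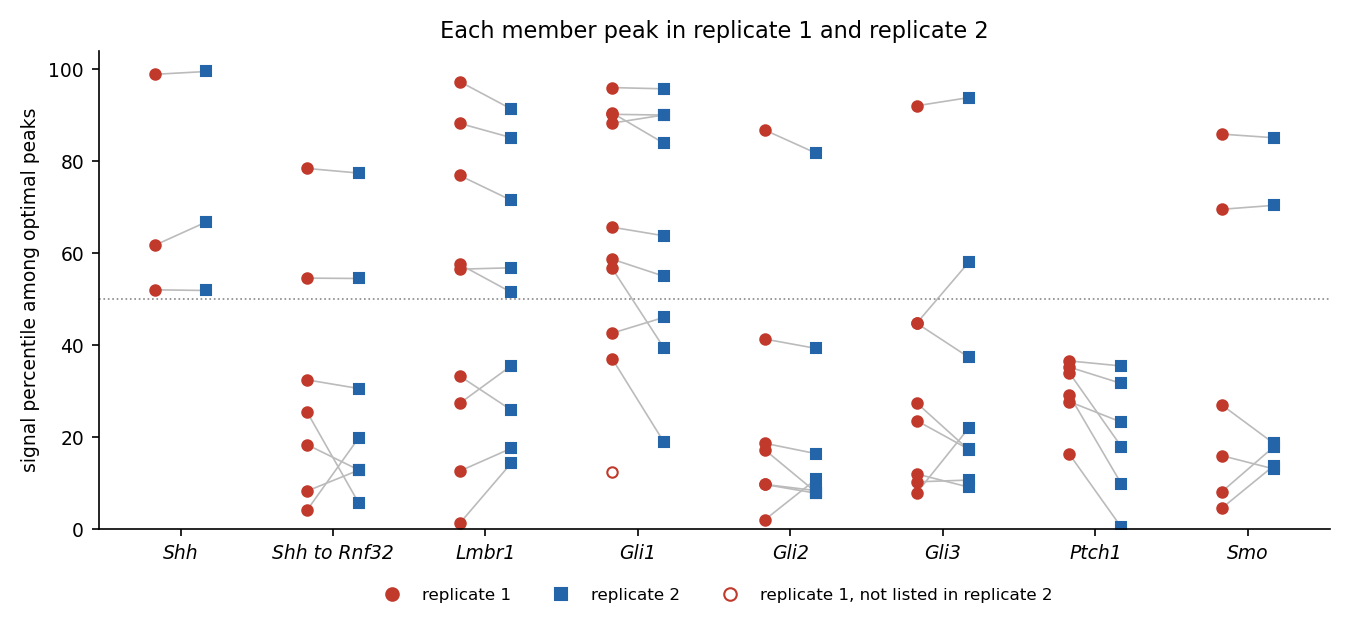
Percentile of each hedgehog peak among optimal peaks (y axis) in replicate 1 (red circles) and replicate 2 (blue squares), joined by lines and grouped by gene along the x axis, with the dotted line at the median. Peaks over the signal of 200 lie above the 71st percentile in both replicates. The open circle is the peak of the Gli1 window, by the Mars start, that is not listed in replicate 2.

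The classes by signal were set on the joint list, which was called on both replicates together, so the replicate values are not independent of them. The 12 peaks with a signal over 200 had percentiles of at least 76.9 in replicate 1 and 71.5 in replicate 2, and the 30 under 50 had percentiles of at most 37.1 in replicate 1 and 35.6 in replicate 2. After the median offset of all optimal peaks, 0.30, was taken off every peak, 2 of 55 were over 2-fold apart between replicates (background 5.24%). These were the Ptch1 intron 3 peak, by 1.69 on the log2 scale, and the desert peak at 28911280, by 1.04. The Gli1 window peak at 127354062 followed at 0.91. All 3 were higher in replicate 1. The Ptch1 and desert peaks had signals under 50, where the offset over all optimal peaks was larger, 0.46. Part of that offset thus remains in their values, and with it taken off the desert peak would not pass the 2-fold limit.

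A CTCF motif was found at 31 of 56 hedgehog peaks, 55.4% (95% Wilson interval 42.4 to 67.6, which covers counting error only). The background was 58.6% of all optimal peaks and 0.951% of windows 1 kb from the summits. At the looser limit of 1e-04 it was 42 of 56 (background 79.0%). Peaks with a motif were the stronger ones, with a median signal of 101, against 30.7 without a motif. Among all optimal peaks the medians were 126 and 48.4. A motif was present at 11 of the 12 peaks over 200 (background 83.9% of such peaks) and at 11 of the 30 under 50 (background 40.0% of such peaks). By location, 13 hedgehog peaks were within 1 kb of a start of any gene, 3 were in exons, 29 in introns and 11 between genes.

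At 9 of the 31 motif peaks the whole site was soft-masked (background 25.1% of motif sites). These had a median signal of 42.3, against 172 for the hedgehog sites with no masked base. Among all optimal peaks the medians were 52.3 for masked and 203 for unmasked sites. Partly masked sites are in neither class, among them the site at 127312496, with 19 of 20 bases masked and a signal of 359. The masked sites resembled each other more: any 2 of them shared a median of 14 of 20 motif bases (range 12 to 18, 36 pairs), against 11 (range 7 to 16, 171 pairs) for the unmasked ones. Of the 9, 4 were in the Gli1 window, 2 in that of Gli2, 2 in that of Ptch1 and 1 in the desert.

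At gene starts, 3 of the 8 hedgehog genes had an optimal peak within 1 kb of an annotated start (background 43.4% of 21728 protein-coding genes), namely Gli1, Gli2 and Ptch1. With the stronger 50% of the list, Gli1 and Gli2 did (background 23.1%). A promoter peak of 300 or more, which these 2 genes had, was present at 6.44% of protein-coding genes. This limit lies just under the Gli2 signal of 301, so the share carries no weight for these genes. Shh, Lmbr1, Rnf32, Gli3 and Smo had no peak within 1 kb of a start. Within 5 kb of a start, 6 of the 8 genes had a peak (background 61.3%). Within 500 bp, 2 of the 8 did (background 35.8%), since the Gli1 peaks lay 522 and 931 bp from a start.

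The wider pathway was taken as a list of 40 other genes. Of these, 25 had a promoter peak (62.5%, 95% Wilson interval 47.0 to 75.8, background 43.4%). The interval covers counting error only. The list was chosen with earlier results known, so the interval is no test against the background. In the stronger 50% of the list it was 11 of 40 (background 23.1%). The strongest promoter peak held a motif at 10 of the 25 genes (background 35.3% of genes with a promoter peak). Where a gene had more than 1 promoter peak, the signal given below is that of the strongest. At Ccnd1, Hhat, Spop, Sufu and Ulk3 the peak nearest a start was weaker, with signals of 58.7, 23.0, 34.0, 175 and 72.4.

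Among the genes for ligands and their release, 2 of 5 had a promoter peak (background 43.4% of protein-coding genes). Hhat, which attaches a fatty acid to the ligand, had a signal of 359, with 191 in replicate 1 and 169 in replicate 2. Disp1, which releases the ligand from cells, had 25.2. The ligand genes Ihh and Dhh had none within 1 kb, and their nearest peaks were 2429 and 6112 bp from a start, with signals of 295 and 409.

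Among the receptor and coreceptor genes, Lrp2, Hhip, Gas1 and Cdon had weak promoter peaks, none with a motif. The endocytic receptor Lrp2 had a signal of 48.5, the ligand-binding inhibitor Hhip 46.5 and the coreceptors Gas1 and Cdon 41.3 and 33.8. The Gas1 peak was listed in replicate 1 at 27.7 and not in replicate 2. For the coreceptor Boc the nearest peak, with a signal of 27.5, was 1022 bp from the start, just outside the limit.

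Signal transducers had promoter peaks at 13 of 17, of which 7 held a motif. Sufu, which binds Gli proteins and holds them back, had the highest, at 377, with 199 in replicate 1 and 177 in replicate 2. Grk2, a kinase that phosphorylates Smo, followed at 176, Spop, an adaptor for the breakdown of Gli proteins, at 172 and the kinase Ulk3 at 139. The kinesin Kif7 and the protein kinase A subunit Prkar1a had none within 1 kb. Among 4 cilium genes only Ift88, a subunit of intraflagellar transport, had a promoter peak, at 59.0 (background 43.4%). The Wilson interval of that share, 4.56 to 69.9, covers counting error only. Kif3a and Ift172 had none.

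Of 8 genes that respond to the signal in neural tissue, 4 had a promoter peak (background 43.4% of protein-coding genes). The cell cycle gene Ccnd1 reached 492 (259 in replicate 1 and 233 in replicate 2) and Mycn 300 (159 in replicate 1 and 138 in replicate 2). The transcription factor genes Olig2 and Nkx2-2 had 108 and 65.2. Foxa2, a floor plate factor, had its nearest peak 1677 bp upstream, with a signal of 132, and Nkx6-1 had none within 1 kb.

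**Figure D5:**
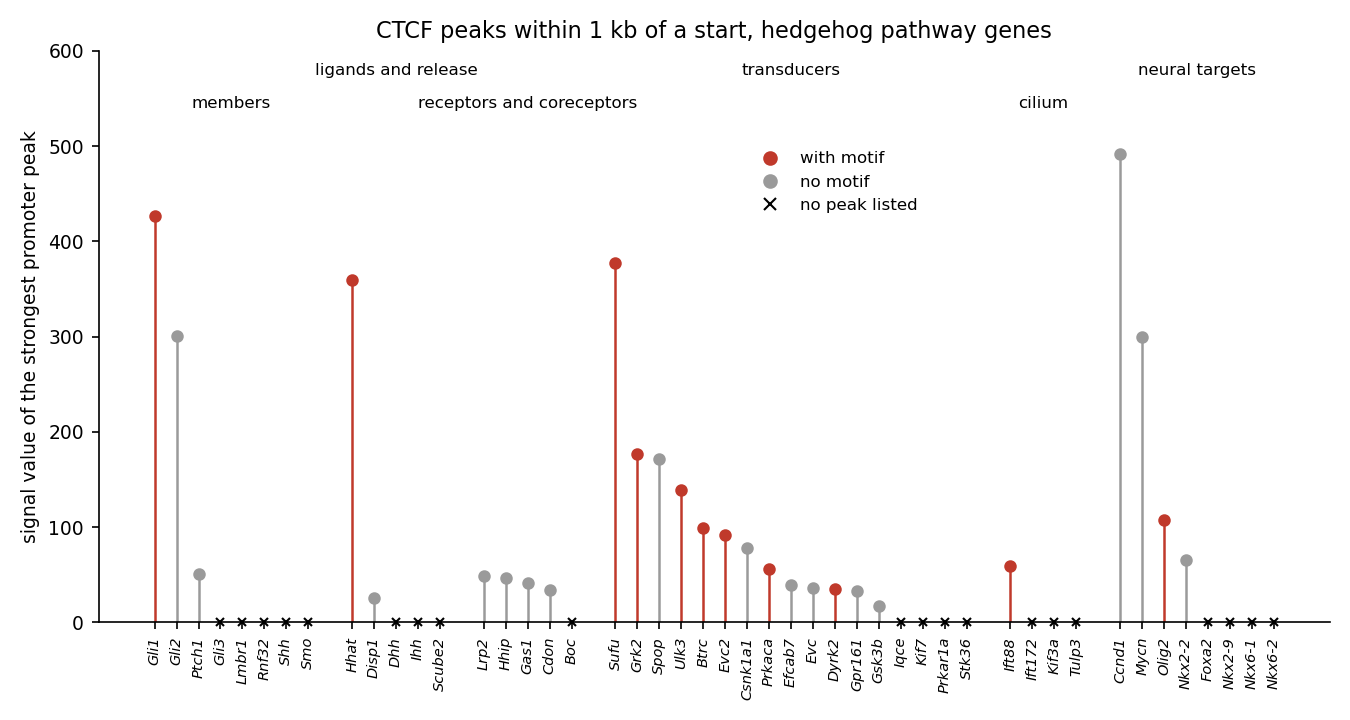
Signal value of the strongest optimal peak within 1 kb of a start (y axis) for the 8 hedgehog genes and other genes of the pathway grouped by role along the x axis, red where the peak holds a motif and grey where it does not, with a cross where no peak was listed. Gli1 (426) and Ccnd1 (492) are the highest of their groups, and the receptor and coreceptor peaks shown lie below 50.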

How the data were processed

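CTCF ChIP-seq peaks were deposited as 5 lists on mm10, per the deposited text notes: 1 per replicate, 1 for both replicates together, and an optimal and a conservative list thresholded by IDR. Each list carries a signal value per peak, computed by the authors on a scale that is not given in the sources used here. The caller, aligner, depth and IDR threshold, and which sets IDR compared, are likewise not given in the sources used here, so no depth-based interval was possible.

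From these, optimal peaks (13 on scaffolds left out) were assigned by summit to GENCODE vM21 genes, and their signal was that of the joint list within 0.005. Replicate values came from the replicate peak with a summit within 100 bp. A 20 bp weight matrix was grown from the 8-mer most over-represented in the 2000 strongest peaks, against windows 1 kb from their summits. Peaks on odd-numbered chromosomes and X gave the matrix applied to even-numbered ones, and the reverse. The scan was tested on simulated data. Software was Python 3.11.15 with numpy 2.4.6, pandas 2.3.3, scipy 1.17.1 and pysam 0.24.0. The most used start of a gene is not known from these data, so any annotated start within 1 kb counted as the promoter.

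Members and lists were chosen with earlier results of these data known. The text names all 8 genes, the 6 strongest peaks of the interval and the 2 strongest of each other gene, all promoter peaks, the nearest peak to a start and the 3 most unequal between replicates. It also names the 4 strongest promoters per pathway role, up to 2 genes without one, and all neighbours. Peaks outside this rule, the RefSeq enhancer records and the soft-masked sites were chosen after their values were seen. 1 gene of the pathway list is counted in its totals and is not reported here. No test was run. Alternatives changed the list, the threshold, the flanks, the promoter width, the motif limit, the matching distance and the replicate used.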

Additional observations from a re-analysis of the deposited data

How the results depend on the processing

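Of 53 values under alternative settings, over 9 results, 41 counted as the same as the value reported and 12 as moved. The rule was broad: a count could change within a set fold range, a share within its Wilson interval and a median within its spread. With promoters of 5 kb, 37 of 40 pathway genes had a peak (background 61.3%), against 25 of 40 at 1 kb. This still counted as the same. The median signal percentile of the hedgehog peaks, 32.6, was 29.61 in the conservative list, 52.58 in the stronger 50% of the optimal list and 36.41 with flanks of 50 kb. From 1 replicate's own strongest peaks it was 33.6 without replicate 1 and 35.59 without replicate 2, settings that also dropped the IDR threshold. The stronger 50% of the list left 10 interval peaks, 22 hedgehog peaks and 11 of 40 pathway genes with a promoter peak (background 23.1%). Of its hedgehog peaks, 81.82% held a motif, and of all optimal peaks with a signal over 200, 83.9% did. The share over all peaks of the stronger 50% was not computed. Without flanks 36 peaks remained. With promoters of 5 kb, 6 of the 8 genes had a peak (background 61.3%). The motif share was 75% at a p of 1e-04 (background 79.0%) and 19.64% at 1e-06, where no background was computed. The plus-strand share of the interval, 33.33%, lay between 33.33% and 50% over all settings tried. No paired analysis was possible because there was 1 group. Signals of unknown scale and depth limit all comparisons to ranks within a list.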

Other observations

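The genes on either side of the interval from Shh to Lmbr1 were read by the same promoter rule. Of 7 neighbours, 4 had an optimal peak within 1 kb of a start (background 43.4% of protein-coding genes). Cnpy1, next to En2, had the strongest, at 138, with 68.7 in replicate 1 and 69.6 in replicate 2. That peak lay 7377 bp from the outermost Cnpy1 start, and the peak nearest a start was weaker, with a signal of 52.3. Nom1 had 46.8, Insig1, a regulator of sterol synthesis, 31.5 and the chaperone gene Dnajb6 24.0. No promoter peak was listed at En2, a homeobox gene of the midbrain and hindbrain border, whose nearest peak was 6121 bp from its start with a signal of 66.2. The motor neuron homeobox gene Mnx1 had its nearest peak 1008 bp upstream, with a signal of 105 (62.4 in replicate 1 and 45.9 in replicate 2). For Rbm33 the nearest peak to a start was 5656 bp away and had a signal of 347.

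The conservative list held 7 peaks in the windows of the hedgehog genes that the optimal list did not. These were 5 at Gli2, 1 at Gli1 and 1 at Gli3, with signals of 9.84 to 28.9. In the interval each replicate list held 103 peaks, and 13 peaks of replicate 1 had a replicate 2 summit within 100 bp but no optimal peak. Their signals reached 24.3 in replicate 1 and 20.3 in replicate 2.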
